A study of Mus musculus with 20 samples.

Results

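Genes that switch MAP kinase signaling off again, 10 in all, were followed in microglia of mThy1-α-synuclein mice: Dusp2, Dusp3, Dusp4, Dusp5, Dusp6, Dusp7, Dusp10, Dusp16, Spry1 and Spry2. They were taken by symbol, and all 10 were among the 24062 genes of the expression matrix. Microglial RNA was sequenced from 20 male mice, in 4 groups: at 7 months of age 6 carried the mThy1-α-synuclein transgene and 4 were wild-type, and at 10 months 5 were of each genotype. The transgenic mice (genotype labelled HEM) carried human α-synuclein, inserted on the X chromosome and driven by the murine Thy-1 promoter, whose activity is mainly neuronal, and both genotypes had the B6D2F1/J background. No group received a treatment, and each sample was the whole brain of 1 mouse. The labels describe beads against IBA1, the study's methods beads against CD11b. The unit is the normalized count, the number of reads on a gene divided by a size factor for the depth of each mouse, and between 33404096 and 77806399 reads (median 49006014) were counted per mouse. Mice of an age were processed together and normalized together, apart from the other age, so age and processing batch cannot be told apart.

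MAP kinases (ERK, p38 and JNK) are switched on when a threonine and a tyrosine in their activation loop are phosphorylated, and MAPK phosphatases of the dual-specificity (DUSP) family remove both phosphates. Several of these phosphatases, and the Sprouty proteins that dampen the step from growth factor receptors to RAS and ERK, are transcribed in response to ERK activity itself and so form a negative feedback. In microglia the CSF1 receptor, on which survival depends, signals partly through this cascade.

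The promoters are shown for the 4 genes with a called difference below, Dusp5, Dusp6, Dusp7 and Spry2. Each run is the 250 bases before the RefSeq start of the gene (GRCm38.p6, mm10), read 5′ to 3′ on the strand of the gene. They lie at chr19:53528895-53529144 (+ strand), chr10:99262981-99263230 (+), chr9:106368382-106368631 (+) and chr14:105896820-105897069 (- strand). Capitals mark matches, on either strand, to 5 motifs: the CArG box of serum response factor, the AP-1 site TGANTCA, the cAMP response element TGACGTCA, the CCAAT box CCAAT and the E-box CACGTG. None of the marked matches overlap.
Dusp5: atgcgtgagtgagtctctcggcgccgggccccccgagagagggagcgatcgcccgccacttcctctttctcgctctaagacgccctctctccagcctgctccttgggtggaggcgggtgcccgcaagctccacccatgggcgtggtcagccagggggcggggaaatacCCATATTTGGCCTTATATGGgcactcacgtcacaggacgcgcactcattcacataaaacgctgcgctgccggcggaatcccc
Dusp6: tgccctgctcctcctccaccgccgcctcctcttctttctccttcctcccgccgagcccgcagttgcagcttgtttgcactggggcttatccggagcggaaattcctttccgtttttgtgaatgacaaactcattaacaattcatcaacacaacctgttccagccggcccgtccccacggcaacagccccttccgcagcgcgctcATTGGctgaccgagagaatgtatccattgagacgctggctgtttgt
Dusp7: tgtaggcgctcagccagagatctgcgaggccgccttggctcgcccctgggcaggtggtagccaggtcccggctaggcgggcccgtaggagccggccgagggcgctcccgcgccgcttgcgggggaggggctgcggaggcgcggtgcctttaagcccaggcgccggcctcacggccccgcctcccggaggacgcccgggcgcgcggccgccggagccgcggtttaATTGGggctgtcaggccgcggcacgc
Spry2: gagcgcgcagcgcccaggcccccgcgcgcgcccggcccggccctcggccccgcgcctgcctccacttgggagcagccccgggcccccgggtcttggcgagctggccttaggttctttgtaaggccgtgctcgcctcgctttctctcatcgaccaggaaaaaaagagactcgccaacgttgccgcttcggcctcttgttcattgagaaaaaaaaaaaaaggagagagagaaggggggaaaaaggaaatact
The Dusp5 promoter holds a pair of CArG boxes end to end, CCATATTTGG and CCTTATATGG, beginning 82 and 72 bases before the start. A CArG box was found in 1.47% of 32851 promoter windows of this length, and Dusp5 was the 1 gene with it among the 9 whose promoter was matched (all but Dusp4). A CCAAT box stands 46 bases before the start of Dusp6 and 26 bases before that of Dusp7, read as ATTGG on this strand. It is common: 33.9% of the windows and 6 of the 9 genes hold it. No match to any of the 5 motifs was found in the Spry2 window. An AP-1 site (6.75% of windows) or a cAMP response element (1.55%) was found in 0 of the 9 windows, and an E-box (6.02%) in that of Dusp2. The motifs were chosen after the expression values were known, and a match is a description of letters.

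In level per kilobase of exon, Dusp6 was the highest of the 10 genes in every group. Its mean ran from 2974 ± 618 normalized counts per kilobase (SD, n = 4) in 7-month wild-type mice to 5950 ± 512 (n = 5) in 10-month wild-type mice, above 94.9% to 97.7% of the 13351 genes compared. Dusp3 and Dusp7 came next, at 1235 to 1516 and 763 to 2023 per kilobase, and their ranges overlapped in both transgenic groups and lay apart in both wild-type groups, with Dusp3 above. Dusp16 followed in each group (239 to 341 per kilobase), then Spry1 (100.4 to 120 per kilobase). Dusp2, Dusp5, Dusp10 and Spry2 lay between 22 and 71.7 per kilobase, and the neighbours in their order mostly overlapped in range. Dusp4 was lowest in each group, at 2.46 to 4.86 per kilobase. It rested on 0 to 25 reads per mouse, was listed at 0 in 1 mouse, where 0 reads allow up to 3.05 normalized counts, and reached 10 normalized counts in 9 of 20 mice.

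**Figure D1:**
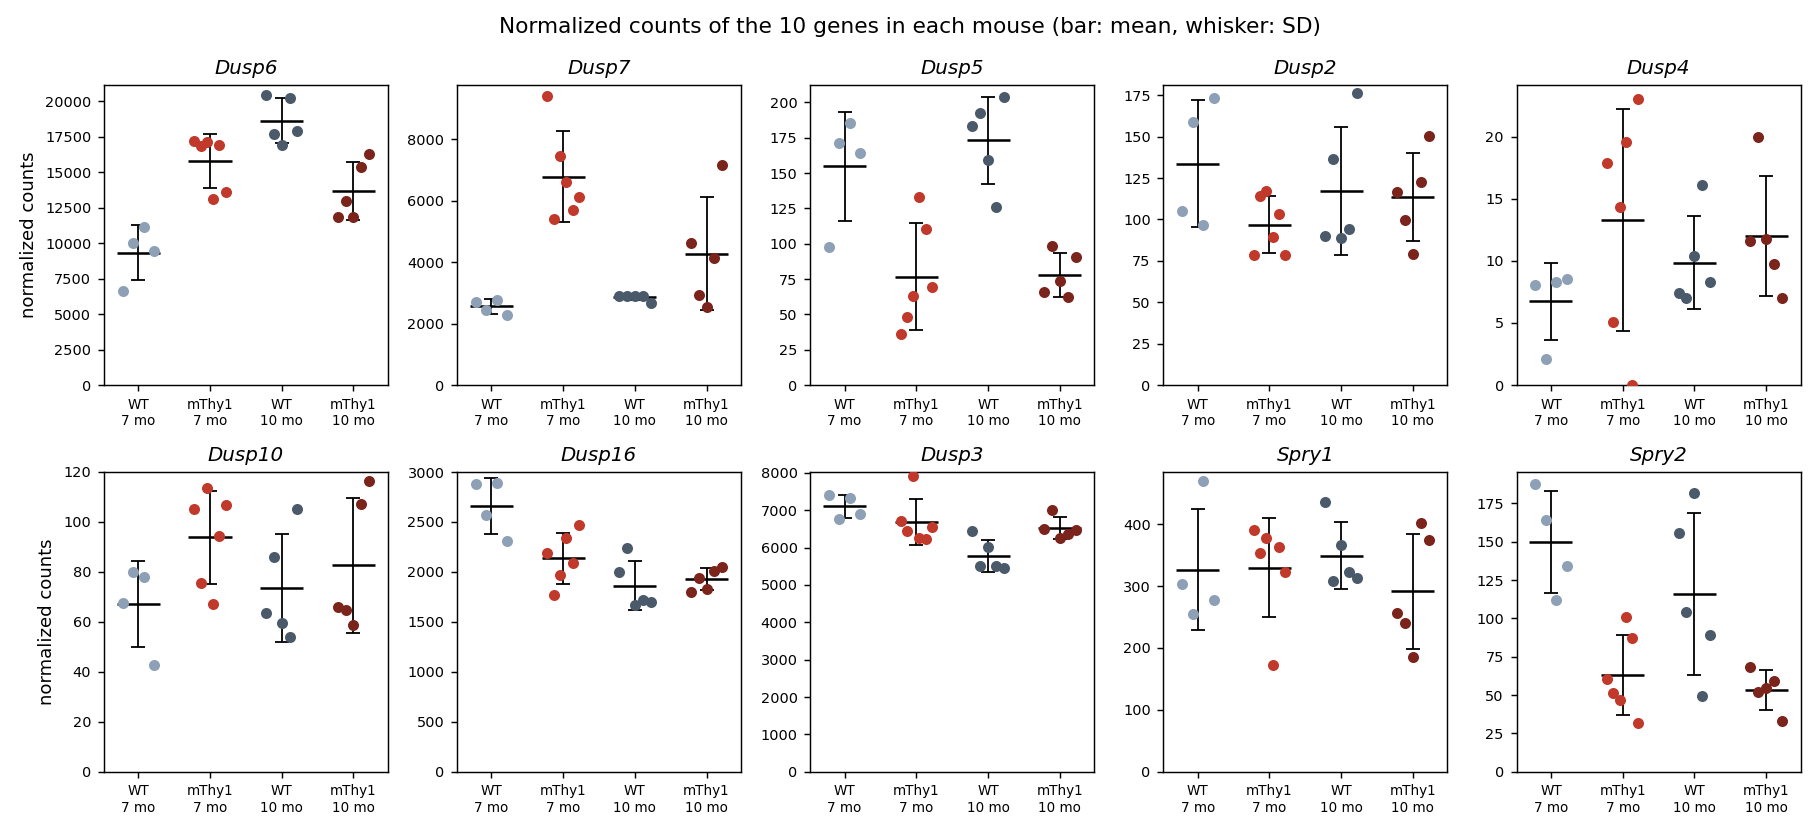
Normalized counts (linear axis from 0) of the 10 genes in every mouse, by genotype (WT, wild-type; mThy1, mThy1-α-synuclein) and age; each point is a mouse, bars are means and whiskers SDs. Dusp6 in mThy1 mice lies above all wild-type mice at 7 months and below all of them at 10 months.

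At 7 months, Dusp6 and Dusp7 were higher and Spry2 was lower in mThy1-α-synuclein than in wild-type mice. At 10 months, Dusp5 and Dusp6 were lower. A gene is called when its p-value from limma's moderated test on log2(normalized count + 1), adjusted by the Benjamini-Hochberg method over all genes tested, is below 0.05; fold changes are on that scale. This gave 3 of the 10 genes at 7 months (2 higher, 1 lower), beside 4.93% of all genes tested (2.23% higher, 2.70% lower), and 2 of 10 at 10 months (0 higher, 2 lower), beside 7.67% (3.79% lower). The genotypes did not overlap for 3 of the 10 genes at 7 months, beside 7.53% of all genes, and for 2 at 10 months, beside 7.27%. The median log2 fold change of the 10 genes was -0.04 at 7 months and 0.02 at 10 months (0.00093 and -0.0026 over all genes), with 5 estimates above and 5 below 0 at each age. Their median absolute log2 fold change was 0.48 and 0.28, beside 0.17 and 0.15 over all genes. Several of the 10 genes are low, and their estimates are wide. The SE at 7 and 10 months was 0.87 and 0.46 for Dusp4, and 0.076 and 0.065 for Dusp3. Dusp4 is among the estimates above 0 at both ages. The values over all genes were not matched for level, so whether the 10 genes differed more than genes of like level was not tested.

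**Figure D2:**
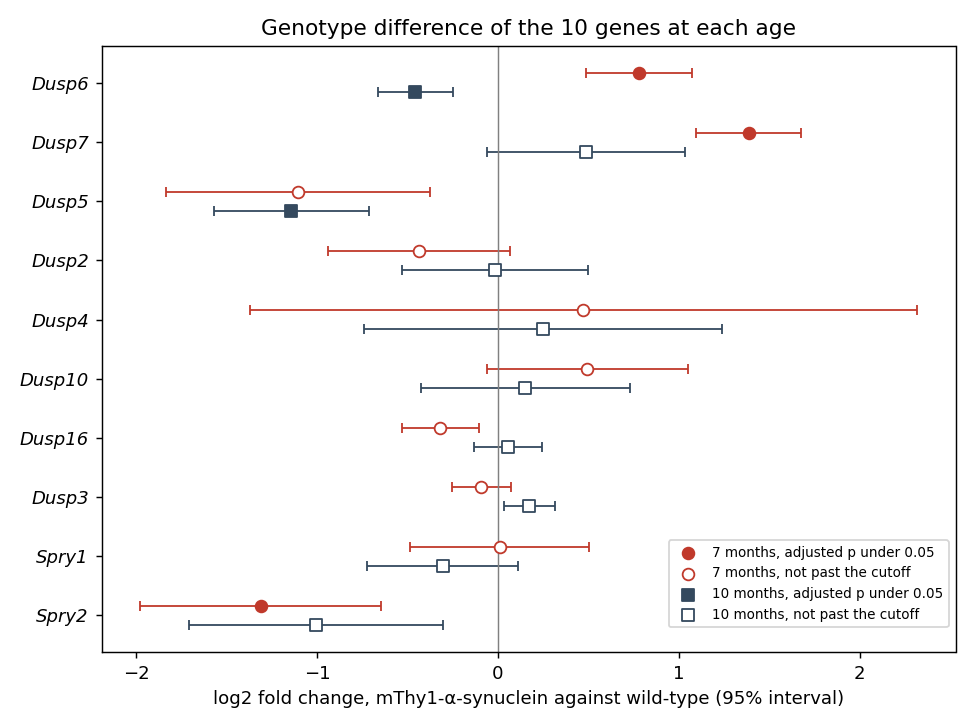
Log2 fold change of mThy1-α-synuclein against wild-type mice for the 10 genes at 7 months (circles) and 10 months (squares), with 95% intervals from limma; filled symbols have an adjusted p under 0.05. Dusp6 lies on opposite sides of 0 at the 2 ages, at 0.78 and -0.46.

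Dusp6 encodes the cytoplasmic phosphatase that acts selectively on ERK and is a standard readout of ERK activity. At 7 months its normalized count lay between 13127 and 17222 (median 16882) in the 6 mThy1-α-synuclein mice. In the 4 wild-type mice it was 6610, 10038, 11148 and 9461. All transgenic mice were above all wild-type mice, and the means were 15812 ± 1911 (SD, n = 6) and 9314 ± 1934 (n = 4), a log2 fold change of 0.78 ± 0.14 (SE; adjusted p = 0.00589, limma). At 10 months the order was the opposite. The 5 mThy1-α-synuclein mice had 11822, 12992, 11838, 15404 and 16283, and the 5 wild-type mice 20463, 17695, 16914, 20228 and 17877. All transgenic mice were below all wild-type mice, and the means were 13668 ± 2066 and 18635 ± 1605 (n = 5 each), a log2 fold change of -0.46 ± 0.096 (adjusted p = 0.0128, limma).

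The difference between these genotype effects was tested as an interaction of genotype and age in 1 limma fit of the 20 mice. It was -1.24 ± 0.18 on the log2 scale for Dusp6 (adjusted p = 0.000372), and Dusp6 was the 1 of the 10 genes called, beside 6.60% of 14030 genes. Of 13484 genes tested at both ages, 33 (0.245%) were called at both in opposite directions, and Dusp6 is among them. Leaving out any 1 mouse kept the call at 7 months (adjusted p up to 0.0178), at 10 months (up to 0.0384) and in the interaction (up to 0.00125). Between the ages, the wild-type mean was 9314 at 7 and 18635 at 10 months and the transgenic mean 15812 and 13668; these 4 levels were normalized apart by age, and the difference between ages within a genotype was not tested.

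Dusp7 encodes the close relative of Dusp6 that also acts on ERK in the cytoplasm. At 7 months the mThy1-α-synuclein mice had 5406 to 9419 normalized counts (median 6371). The wild-type mice had 2716, 2456, 2785 and 2284. The groups did not overlap, and the log2 fold change was 1.39 ± 0.13 (6788 ± 1476 against 2560 ± 232, SD, n = 6 and 4; adjusted p = 0.000313, limma), the largest of the 10 genes at either age. At 10 months the transgenic mice had 4629, 2920, 2540, 4148 and 7171, and the wild-type mice 2897, 2893, 2890, 2895 and 2684. Transgenic replicates 1, 4 and 5 stood well above the wild-type range, replicate 2 just above its highest value and replicate 3 below its lowest. The log2 fold change of 0.49 ± 0.24 was not called (95% interval -0.06 to 1.03, adjusted p = 0.266, limma). The interaction was -0.90 (adjusted p = 0.0778) and was called without mThy1-α-synuclein replicate 5 at 10 months (-1.11, adjusted p = 0.00695).

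Because Dusp7 split the transgenic mice at 10 months, the genes around it on chromosome 9 (Dusp7 at chr9:106368632-106375724, mm10) were examined within 1 Mb on either side; this window was chosen after the values were seen. At 7 months 6 of 27 tested neighbours were called, and all 6 were higher in mThy1-α-synuclein mice: Atp2c1, Tlr9, Poc1a, Rpl29, Abhd14b and Parp3. Over all genes tested at that age, 4.93% were called and 2.23% were called higher. Abhd14b, which starts 78827 bases after the start of Dusp7, had 210 to 431 normalized counts in the transgenic and 52.1 to 82.1 in the wild-type mice, a difference of 2.24 ± 0.23 on the log2 scale (adjusted p = 0.000203, limma). Rpl29, a ribosomal protein gene 60822 bases after that start, had 8352 to 12910 against 4508 to 6006 (1.07 ± 0.14, adjusted p = 0.00183); ribosomal protein genes have near-identical pseudogenes, so its counts are uncertain. Tlr9, the receptor for unmethylated CpG DNA, starts before Dusp7 and had 4413 to 6500 against 3326 to 4049 (0.54 ± 0.096, adjusted p = 0.00424). At 10 months 3 of 26 neighbours were called, beside 7.67% of all genes: Abhd14b was higher (1.81 ± 0.42, adjusted p = 0.0225), and Manf (-0.53 ± 0.11) and Mapkapk3 (-0.38 ± 0.078) were lower. Within 1 Mb of the other 9 genes, 0 to 4 neighbours were called at an age, beside the same 4.93% and 7.67% of all genes. The largest count was around Spry1 (4 of 8 at each age). Around Dusp6, 2 of 5 were called at 7 months, 2 of them higher, and 0 of 4 at 10 months.

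**Figure D3:**
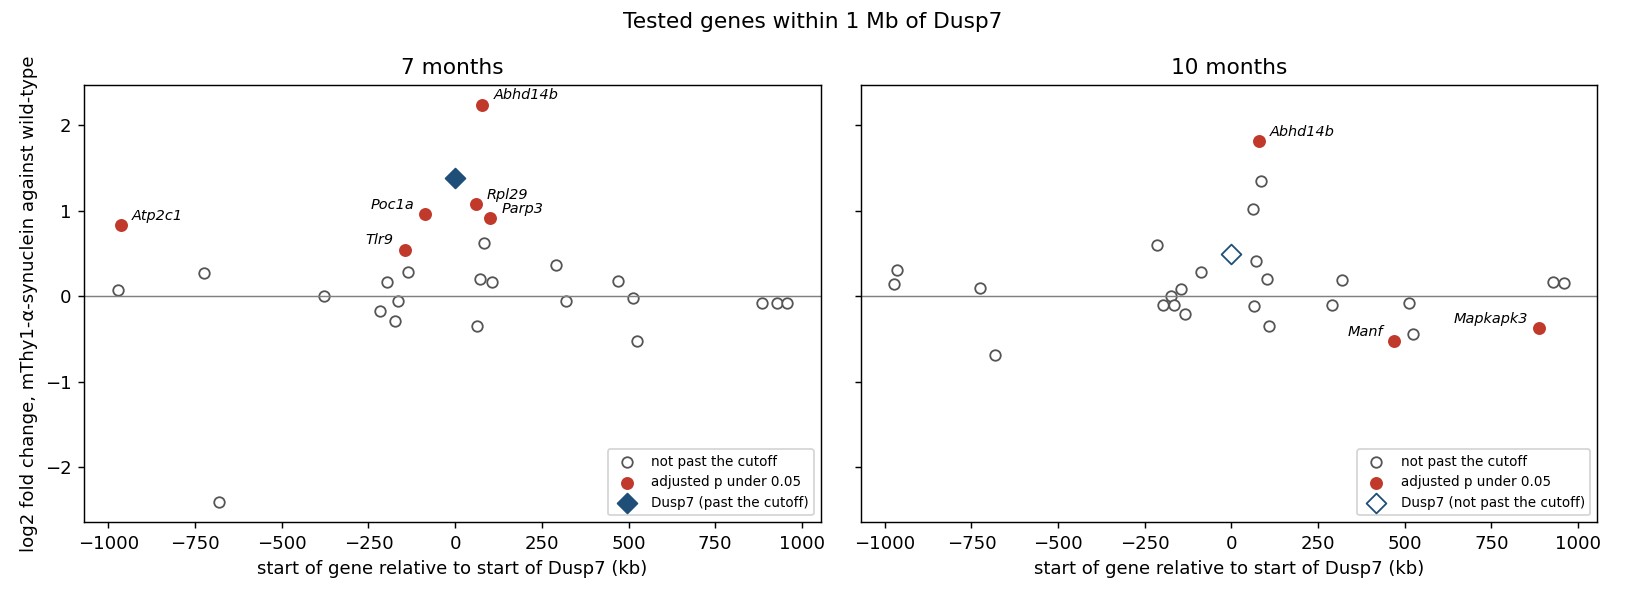
Log2 fold change of mThy1-α-synuclein against wild-type mice for the tested genes within 1 Mb of Dusp7, against the distance in kilobases between the lower coordinate of each gene and that of Dusp7 (negative, before Dusp7); filled circles have an adjusted p under 0.05 and the diamond is Dusp7. At 7 months the 6 called neighbours are all above 0, and all but Atp2c1 start close to Dusp7.

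The mice that were high for Dusp7 at 10 months were also high for Rpl29 and Abhd14b. Rpl29 was 7717, 4706, 3836, 9984 and 12251 in transgenic replicates 1 to 5, and 2985 to 3906 in the wild-type mice. Replicates 1, 4 and 5, the mice with the highest Dusp7, had the highest Rpl29, and replicate 3, with the lowest Dusp7, lay within the wild-type range. Abhd14b was 204, 84.6, 81.3, 296 and 352 in the same mice, and 30.9 to 69.8 in the wild-type mice, so all 5 transgenic mice were above all wild-type mice. Tlr9 did not keep that order, at 4410, 3303, 4158, 3887 and 4838 in the same transgenic mice. It was 2943 to 4400 in the wild-type mice. Over all 20 mice, with the mean of each group taken out, the genes whose log2 values followed Dusp7 most closely among 14029 were Rpl29 (Pearson r = 0.86), Glb1 (r = 0.81) and Sult2b1 (r = 0.77). Of these, Sult2b1 was low, at 3.21 to 44.4 normalized counts. Glb1, the lysosomal β-galactosidase, is also on chromosome 9 (chr9:114401076-114474898) and was called higher at both ages (0.68 and 0.42). The B6D2F1/J background is a cross of inbred strains, and which strain the chromosome 9 segment of each mouse came from was not analysed here. The part of that segment in the difference of Dusp7 and its neighbours was not tested.

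**Figure D4:**
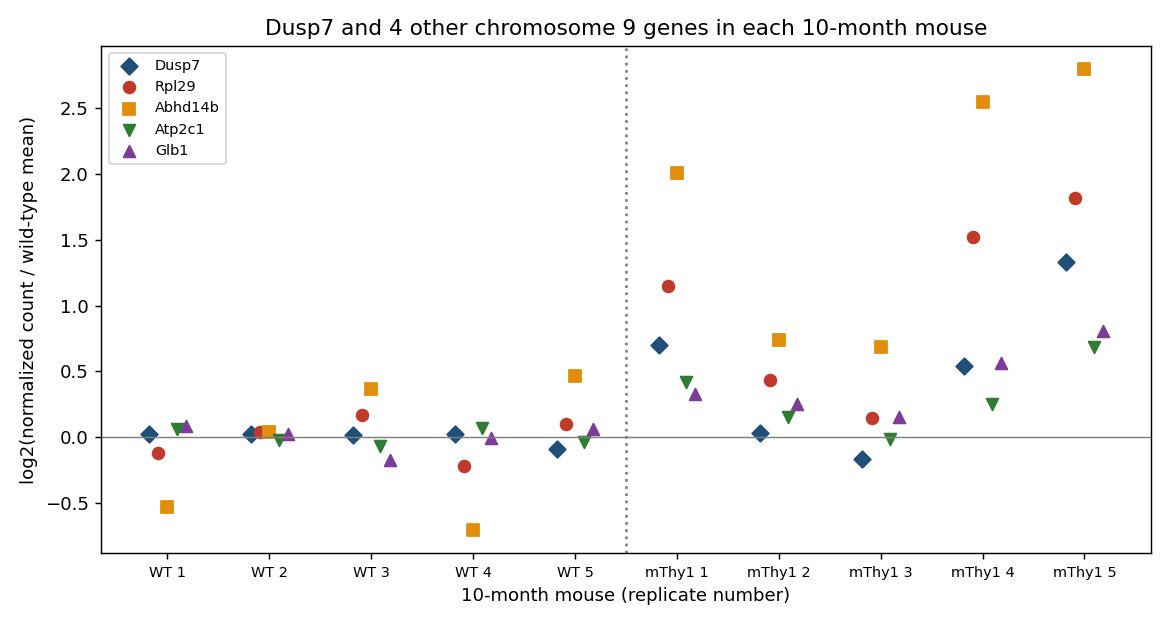
Log2 ratio of the normalized count to the wild-type mean for Dusp7, Rpl29, Abhd14b, Atp2c1 and Glb1 in each 10-month mouse (left of the dotted line wild-type, right mThy1-α-synuclein). Transgenic replicates 1, 4 and 5 are the highest for Dusp7, Rpl29 and Abhd14b, and replicates 2 and 3 lie nearer to 0.

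Dusp5, Dusp2 and Dusp4 encode the inducible phosphatases of the nucleus, of which Dusp5 is selective for ERK. Dusp5 was 65.8, 98.1, 73.8, 62.3 and 90.3 in the 10-month mThy1-α-synuclein mice. It was 183, 193, 159, 126 and 204 in the wild-type mice of that age. All transgenic mice were below all wild-type mice (78.1 ± 15.5 against 173 ± 30.9, SD, n = 5 each), with a log2 fold change of -1.14 ± 0.20 (adjusted p = 0.00549, limma; up to 0.0186 without any 1 mouse). At 7 months the values were 35.8 to 133 (median 66.2) in the transgenic mice and 98, 172, 185 and 164 in the wild-type mice. The groups overlapped in that transgenic replicates 4 and 5 lay above the lowest wild-type mouse, and the log2 fold change of -1.10 ± 0.34 was not called (adjusted p = 0.0779). It was called without transgenic replicate 4 (adjusted p = 0.0291), by DESeq2 (0.0474) and in 1 fit of all 20 mice (0.0235). The interaction was -0.04 (95% interval -0.88 to 0.81), so a difference between the ages was not detectable.

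Dusp2 had 78.4 to 117 normalized counts in transgenic and 96.8 to 173 in wild-type mice at 7 months, a log2 fold change of -0.43 (95% interval -0.94 to 0.07). At 10 months it had 79.2 to 151 and 88.6 to 176 (-0.02, interval -0.53 to 0.50). Dusp4, with 0 to 23.0 normalized counts at 7 and 7.02 to 19.9 at 10 months over both genotypes, gave log2 fold changes of 0.47 and 0.25 whose 95% intervals reached from -1.37 to 2.31 and from -0.74 to 1.24. At 7 months no wild-type mouse reached 10 normalized counts for Dusp4 (highest 8.51). It therefore passed the filter at that age, 10 normalized counts in 4 or more mice, only through the transgenic group. A difference was not detectable for Dusp2 or Dusp4, and for Dusp4 the depth allows no narrower statement.

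Spry2, the Sprouty protein that binds GRB2 and CBL and dampens receptor signaling to RAS, had 31.5 to 101 normalized counts (median 55.8) in the 7-month mThy1-α-synuclein mice. The wild-type mice had 188, 164, 112 and 134. The groups did not overlap, and the log2 fold change was -1.31 ± 0.31 (63.1 ± 26.2 against 150 ± 33.3, SD, n = 6 and 4; adjusted p = 0.0254, limma). The call ended on leaving out any of 5 mice: wild-type replicate 1 (adjusted p = 0.108), 2 (0.0732) or 4 (0.0509), or transgenic replicate 2 (0.0533) or 3 (0.0523). At 10 months the values were 68.5, 51.9, 54.6, 59.4 and 33.1 in the transgenic mice and 156, 104, 182, 49.7 and 89.2 in the wild-type mice. Wild-type replicate 4 lay within the transgenic range, and the other 4 were above it. The log2 fold change of -1.01 ± 0.33 was not called by limma (adjusted p = 0.0767). It was called without that mouse (-1.27, adjusted p = 0.0139), by edgeR (0.0489) and by DESeq2 (0.0105).

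Spry1, the other Sprouty gene, had 173 to 390 normalized counts in transgenic and 255 to 470 in wild-type mice at 7 months (log2 fold change 0.0096, 95% interval -0.48 to 0.50). At 10 months it had 185 to 402 and 308 to 436 (-0.30, interval -0.72 to 0.11), with 3 transgenic mice below all wild-type mice. Neither age was called (adjusted p = 0.988 and 0.376, limma).

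Dusp10 and Dusp16 act mainly on p38 and JNK, and Dusp3 is a small phosphatase that acts on ERK and JNK. Dusp16 was 1765 to 2472 (median 2141) in transgenic mice and 2875, 2572, 2886 and 2305 in wild-type mice at 7 months. Its log2 fold change of -0.32 ± 0.099 was not called by limma (adjusted p = 0.0792), and was called by DESeq2 (0.0456) and in 1 fit of all 20 mice (0.0484). At 10 months it was 0.06 (95% interval -0.13 to 0.24). Dusp3 differed by -0.09 (interval -0.25 to 0.07) at 7 months and by 0.17 (0.04 to 0.31, adjusted p = 0.120) at 10 months, and Dusp10 by 0.50 (-0.06 to 1.05) and 0.15 (-0.42 to 0.73). The interactions of Dusp3 (0.27, adjusted p = 0.100) and Dusp16 (0.37, adjusted p = 0.0998) were not called. That of Dusp3 was called without transgenic replicate 3 at 7 months (adjusted p = 0.0322), and that of Dusp16 without wild-type replicate 2 at 10 months (0.0479).

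The counts of the other genes of the pathway stand beside 4.93% of all genes called at 7 months and 7.67% at 10 months. In the ERK cascade, from the adaptors to ERK, 1 of 21 tested genes was called at 7 months and 0 at 10 months (limma). The gene was Gab2, a docking protein of receptor signaling, lower at 8191 to 8967 normalized counts in wild-type and 5355 to 7691 in transgenic mice (-0.44 ± 0.094, adjusted p = 0.0135, or 0.0506 without wild-type replicate 3). Among the kinases that the phosphatases act on, these were not called at either age: Mapk3 (ERK1) differed by -0.19 and 0.04, Mapk14 (p38α) by 0.07 and -0.06, and Mapk8 (JNK1) by 0.09 and 0.0078 on the log2 scale. Csf1r differed by 0.07 and 0.12, without a call. In the p38 and JNK cascade, Map2k7, the kinase that activates JNK, was lower at 7 months (-0.39 ± 0.081, adjusted p = 0.0121) and higher at 10 months (0.30 ± 0.085, adjusted p = 0.0467), 1 of 17 genes called at 7 months. At 10 months 3 of 17 were called, Map2k7, Map3k7 (0.21 ± 0.060, adjusted p = 0.0464) and, lower, Mapkapk3 (-0.38 ± 0.078, adjusted p = 0.0115).

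Among 13 tested transcripts that respond to ERK, 1 was called at 7 and 3 at 10 months, beside 4.93% and 7.67% of all genes. Myc, the growth-promoting transcription factor, was higher at 7 months (950 to 1227 against 456 to 746 normalized counts, 0.89 ± 0.12, adjusted p = 0.00183, limma). At 10 months Etv1 (0.33 ± 0.083, adjusted p = 0.0301) and Etv5 (0.29 ± 0.068, 0.0210), ETS factors, were higher and Mcl1, a survival factor of the BCL2 family, was lower (-0.30 ± 0.077, 0.0327). Dusp6, also induced by ERK, was lower in the same mice. Of 20 immediate-early genes, which tissue dissociation can also induce, 0 were called at 7 months, and at 10 months 1 was, Fosb (-0.67 ± 0.18, adjusted p = 0.0474). Of 14 other inhibitors and regulators of RAS and ERK, 0 and 1 were called, the latter Rasgrp3 (0.38 ± 0.074 at 10 months, adjusted p = 0.00898). Of 16 growth factor receptors, Mertk was higher at 7 months (0.35 ± 0.083, adjusted p = 0.0220) and Met lower at 10 months (-1.28 ± 0.28, adjusted p = 0.0153). The 2 other tested MAPK phosphatases, the atypical DUSPs (10 and 8 tested) and the 3 tested other Sprouty and Spred genes gave 0 calls at either age. Dusp1 differed by -0.39 and -0.66 (adjusted p = 0.466 and 0.124), and Spry4, at 1.36 to 14.8 normalized counts, was too low to test. Several of these calls ended without 1 mouse: Map2k7 at 10 months without transgenic replicate 3 (adjusted p = 0.108), Map3k7 without transgenic replicate 5 (0.0983), Etv1 without transgenic replicate 1 (0.0703), Etv5 without transgenic replicate 3 (0.0586), Mcl1 without transgenic replicate 3 (0.0773), Fosb without transgenic replicate 3 (0.105) and Mertk without wild-type replicate 1 (0.101).

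**Figure D5:**
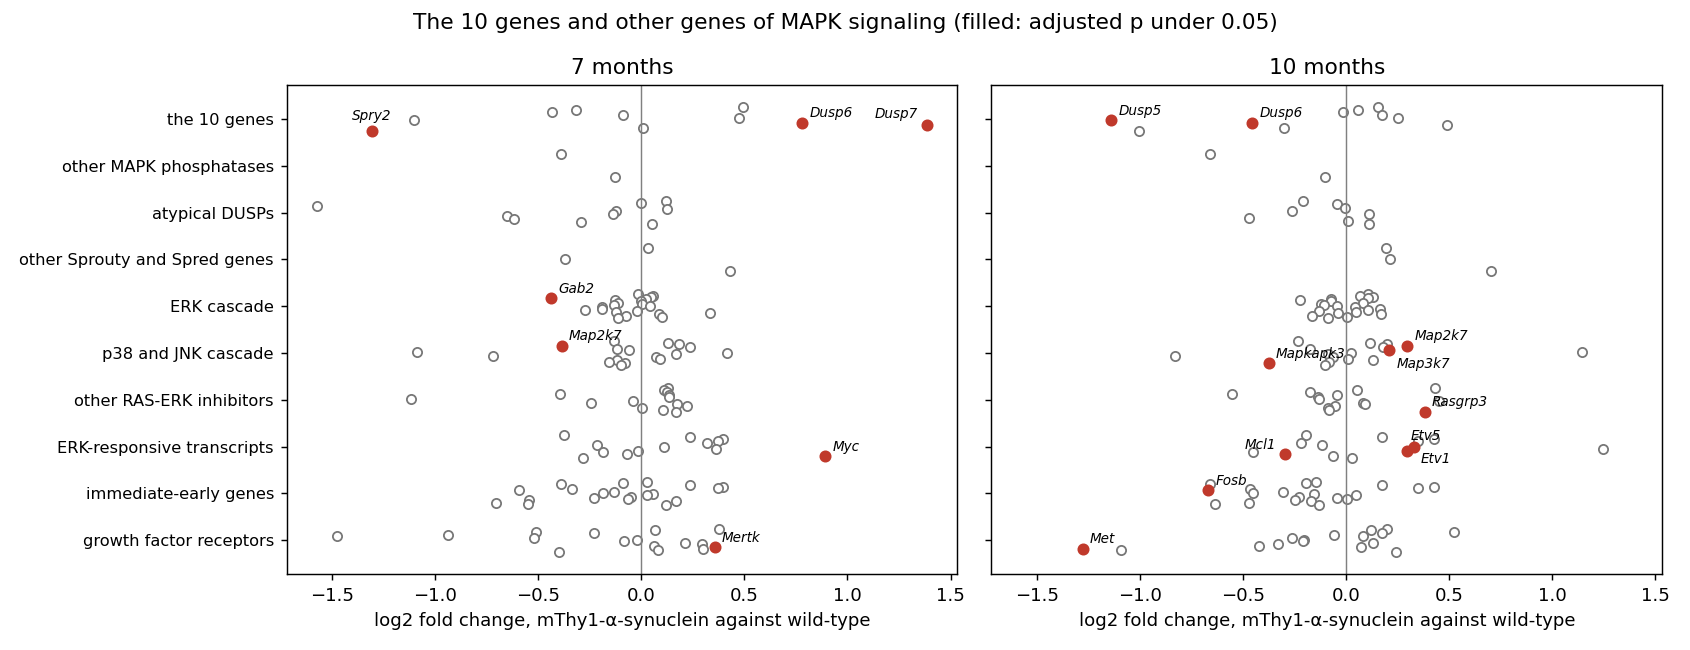
Log2 fold change of mThy1-α-synuclein against wild-type mice at 7 and 10 months for the tested genes among the 10 and in 9 other lists of MAPK signaling, 1 point per gene; filled points, named, have an adjusted p under 0.05. Dusp6, Dusp7, Spry2 and Myc are the called genes farthest from 0 at 7 months, Met and Dusp5 at 10 months.

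The RNA held that of other cells, and markers of several of these cell types differed by genotype beside these results. The microglial markers Cx3cr1 and P2ry12 were at 257890 to 361550 and 268390 to 384340 normalized counts at 7 months. Neuronal (6 of 12 tested markers called, all lower), oligodendrocyte (3 of 8, lower), endothelial (2 of 8, lower) and astrocyte markers (4 lower and 1 higher of 10) were called at 7 months, where Spry2 was lower. Their summed normalized counts were 633 to 921 in transgenic against 1360 to 2082 in wild-type mice for neurons, 7861 to 10222 against 12792 to 18264 for oligodendrocytes, 2833 to 4836 against 5253 to 6324 for endothelium, and 9840 to 12555 against 9512 to 12626 for astrocytes. Defining markers were above 0: Snap25 lay at 94.1 to 352 and Mbp at 2725 to 4876. At 7 months Snap25 was not called (-0.68, adjusted p = 0.197, limma), and Mbp was lower (-0.49, adjusted p = 0.0163). Gfap, of astrocytes, was not called (-0.17, adjusted p = 0.813). At 10 months, where Dusp5 and Dusp6 were lower, 4 of 8 border macrophage markers, 4 of 7 monocyte markers, 1 of 7 neutrophil markers and 2 of 6 lymphocyte markers were lower. The sums were 19568 to 25096 against 26491 to 36610 for border macrophages, 15881 to 27597 against 29053 to 56598 for monocytes, 72347 to 196690 against 155820 to 388570 for neutrophils, and 666 to 936 against 755 to 1231 for lymphocytes, whose marker Cd3e was at 0 to 4.22. At that age 4 of 12 microglial markers were higher (1 of 12 at 7 months), 1 of 10 neuronal markers was lower, 1 of 10 astrocyte markers was higher, and 0 oligodendrocyte, precursor or endothelial markers were called. At 7 months, where Dusp6 was higher, no border macrophage, monocyte, neutrophil or lymphocyte marker was called. The part of these cells in the values of the 10 genes was not tested, and in bulk RNA fewer cells of a type and less RNA per cell cannot be told apart.

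Across the 20 mice, with the mean of each group taken out of the log2 values, the 45 pairs had Pearson r from -0.37 to 0.65 (median 0.05), and 0 pairs passed the cutoff after adjustment over the 45 (3 at an unadjusted p below 0.05). The highest was Dusp6 with Spry1, r = 0.65 (permutation p = 0.00705, adjusted 0.317) and Spearman's rho = 0.66 (p = 0.00879, adjusted 0.396 by permutation). It was 0.70 without the 2 mice farthest from the median of Dusp6, 0.56 within the 7-month and 0.80 within the 10-month mice. Against the mean of 20 standardized immediate-early genes, Dusp5 gave r = 0.64 (permutation p = 0.0118, adjusted over the 10 genes 0.0632; rho = 0.56, p = 0.0201, adjusted 0.113), 0.57 without the 2 farthest mice, 0.73 at 7 and 0.52 at 10 months. Dusp4 gave r = -0.62 (permutation p = 0.0127, adjusted 0.0632), which was -0.40 without the 2 farthest mice.

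By the same measure genes close to Dusp6 among 14029 were Lsm14b (r = 0.92) and Faf2 (0.83), neither called at either age. Those closest to Dusp5 were Hist1h2bk (0.83), Pfkp (0.83) and S1pr5 (0.80). Genes close to Spry2 were Ccdc19 (0.83) and Grin2c (0.80, at only 0 to 27.9 normalized counts), neither called at either age. These r values rank genes over 20 mice that share libraries and depth, and are descriptions.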

How the data were processed

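RNA-seq of polyadenylated RNA from 20 mouse microglia samples was analysed. The authors trimmed reads with Trim Galore 0.6.7, aligned them to mm10 with HISAT2 2.2.1, counted them per gene with featureCounts and normalized with DESeq2 1.44.0. The annotation release, strand setting and handling of reads mapping to several places are not given in the sources used here. The deposited values are a signal, namely gene counts divided by a size factor per mouse. Each was a whole multiple (within 0.01; 100% of values) of 1 step per mouse, and the steps equalled the inverse of size factors recomputed within an age, so the ages were normalized separately and whole reads were recovered. In 1 mouse (10-month mThy1-α-synuclein replicate 5) the step was too near 1 to be tested on low values.

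Genes that reached 10 normalized counts in 4 or more mice (7 months, 13887 genes) or 5 or more (10 months, 13627 genes) were tested with limma 3.58.1 (R 4.3.3) on log2(value + 1), with trend and robust estimation. The interaction used 14030 genes. p-values were adjusted by Benjamini-Hochberg with a cutoff of 0.05. Scripts were tested on simulated data. Levels per kilobase used the exon length of GENCODE vM21 genes (GRCm38), whose symbols matched 94.4% of genes; promoters are from RefSeq. Correlations used 100000 permutations. Alternatives were pseudocounts of 0.5 and 5, no filter, edgeR 4.0.16 and DESeq2 1.42.0 on recovered reads, voom with sample weights, a replicate block, 1 fit of 20 mice, and leaving out each mouse. Python 3.11.15, numpy 2.4.6, scipy 1.17.1, pandas 2.3.3 and matplotlib 3.10.9 were used.

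The 10 genes, the lists and the tests were chosen with earlier results of these data known. The text names the 10 genes, the defining cell markers, key kinases and receptors, up to 4 called genes per other list and age by adjusted p, and the 3 genes closest in pattern to each called gene; Spred2, the neighbours of Dusp7 and the motifs were chosen after values were seen. P-values of genotype differences and interactions set the difference against the spread between mice within groups, 1 sample per mouse. Those of correlations come from permuting mice within groups. DNA methylation and behavior were not analysed here. Results for some genes that this rule names are not reported here.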

Additional observations from a re-analysis of the deposited data

Results flagged for a closer look

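In 4 of 40 sets of values (10 genes in 4 groups), 1 mouse stood apart by Dixon's criterion, which chance alone gives in about 1 in 20. Dusp3 was highest in 7-month mThy1-α-synuclein replicate 3, at 7902 normalized counts. Spry1 was lowest in replicate 4 of that group, at 173.3. Dusp4 was lowest in 7-month wild-type replicate 2, at 2.08. Dusp7 was lowest in 10-month wild-type replicate 5, at 2684, where the other 4 wild-type mice lay within 2890 to 2897.

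The genotype effect differed between the ages by the interaction test in limma for Dusp6 (-1.236 on the log2 scale, 10 minus 7 months, adjusted p = 0.000372). It did so too for Myc (-0.9566, adjusted p = 0.0286), Gab2 (0.5451, adjusted p = 0.00733), Map2k7 (0.6831, adjusted p = 0.00168) and Spred2 (0.5836, adjusted p = 0.0184), an inhibitor of RAF activation that was not called at either age alone (-0.37 at 7 and 0.21 at 10 months). Dusp6 and Myc were relatively higher in mThy1-α-synuclein mice at 7 months, and Gab2, Map2k7 and Spred2 at 10 months. Age and processing batch cannot be told apart.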

How the results depend on the processing

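Of the 10 genes, 3 were called at 7 months, 5 by DESeq2 and 5 in 1 fit of 20 mice (Dusp5 and Dusp16 joined), and 2 to 4 without any 1 mouse. At 10 months 2 were called, and 2 to 3 without any 1 mouse. In the interaction 1 was called, and 1 to 2 without any 1 mouse. Over all genes, 684 were called at 7 months, 1158 by DESeq2, and 280 to 860 without any 1 mouse. At 10 months 1045 were called, 1694 by DESeq2, and 489 to 1232 without any 1 mouse. In the interaction 926 were called, and 623 to 1100 without any 1 mouse.

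Equal replicate numbers showed no pairing in expression: the deviations of same-numbered mice correlated at -0.134 to 0.0995, and no number correlated best with itself. Whether same-numbered mice shared a litter or handling was not tested. With a replicate block the calls over all genes were 414 at 7 months and 481 in the interaction, Spry2 at 7 months had an adjusted p of 0.0613, Spry1 at 7 months was -0.040 and the interaction of Dusp5 was 0.13, against 0.0096 and -0.04 without the block. The sign also changed without 1 mouse for Spry1 at 7 months (-0.10 to 0.20), Dusp2 at 10 months (-0.13 to 0.14) and the interactions of Dusp5 (-0.22 to 0.17) and Dusp4 (-0.88 to 0.18). None of these was called. The cause of these changes was not tested. Dusp6 and Dusp7 kept their calls at 7 months and Dusp5 and Dusp6 at 10 months under every alternative run. With edgeR and TMM scaling together, the median of all genes was 0.012 and -0.00096 on the log2 scale. Depth limits Dusp4 most: it passed the filter in 6 of the 10 fits without 1 mouse at 7 months and in 5 of 10 at 10 months.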
